A study of Mus musculus with 10 samples.

Results

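The 10 genes described here belong to the integrated stress response and were chosen by name: the transcription factor Atf4 and 9 genes known as its targets, Atf5, Ddit3, Trib3, Chac1, Asns, Psat1, Phgdh, Shmt2 and Mthfd2. All 10 of these genes were found among the 24386 genes in the files, and all 10 passed the filter on low counts, as did 14525 genes in all. Nascent RNA was read by TT-seq, in which RNA made during a short pulse of 4-thiouridine (4sU) is purified and sequenced. TX1072 cells, a female mouse ESC line from a Mus musculus castaneus x C57BL/6 cross, were labelled with 0.5 mM 4sU for 5 min after 0, 4, 8, 12 or 24 h of doxycycline (DOX) at 1 µg/ml, in duplicate, which makes 10 samples with 2 replicates for each time. The 0 h samples had no DOX.

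All samples were grown on gelatin with serum, LIF and the 2i inhibitors (PD0325901 and CHIR99021), and their genotype is labelled WT. In TX1072 a DOX-inducible promoter drives the endogenous Xist of the B6 (C57BL/6) allele, so the DOX samples all expressed Xist as well, and none of the 10 samples had DOX alone. DOX was added 24 h after plating and harvests followed from there, so later samples had also been cultured for longer. For these 10 autosomal genes the drug, Xist and the culture time therefore cannot be told apart. The samples come from 1 cell line, and the p-values measure the spread between duplicates of it.

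The integrated stress response begins when a stress-sensing kinase phosphorylates the initiation factor eIF2. General translation then falls, while translation of the Atf4 mRNA rises, so ATF4 protein can increase with little change in Atf4 transcription. ATF4 pairs with C/EBP or other bZIP proteins and binds composite elements in genes for amino acid synthesis, amino acid uptake and redox balance. Inhibition of mitochondrial translation, which doxycycline is known to cause, is one of the stresses that engage this pathway in cultured cells. Comparing the DOX times with 0 h therefore asks whether transcription of these reporters of mitochondrial or amino acid stress moved during the induction.

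To show the kind of element through which ATF4 acts, the letters TGATGNAA, a common form of the C/EBP-ATF composite element, were searched on both strands of the RefSeq promoter windows (GRCm38.p6, 250 bases before to 50 bases after each start). The 10 genes had 12 windows, and 3 of these windows, 1 in each of 3 genes, held the letters, against 3.97% of all 32851 windows. The matches follow, read along the gene's strand, with the 8 letters of the match in capitals and 8 bases on each side.
Chac1: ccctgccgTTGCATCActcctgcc
Trib3: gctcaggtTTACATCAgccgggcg
Asns: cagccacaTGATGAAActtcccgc
The Chac1 stretch lies at chr2:119351041-119351064 on the plus strand, and its match begins 193 bases before the start. The Trib3 stretch lies at chr2:152344031-152344054 on the minus strand, with the match beginning 14 bases after the start, and the Asns stretch at chr6:7693217-7693240 on the minus strand, with the match beginning 23 bases before it. The Chac1 and Trib3 matches read as the reverse complement and the Asns match as written. A match is a description of these letters and not evidence of binding, and no match in the windows of the other 7 genes says only that the letters are not in those windows.

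Sample totals ran from 18809046 to 22274929 counts, without spike-in scaling, so the values are relative to the other genes of a library. Counts were scaled with TMM and are given as CPM (counts scaled to the library size), and per kb of the counted gene span, introns included, wherever genes are compared with each other. Most of the 10 pluripotency markers were highly transcribed, with summed levels of 2753 to 3102 CPM in the 10 samples. Nanog was at 273 to 329.6 CPM and Esrrb at 974 to 1102 CPM, but Dppa3 only at 5.27 to 7.57 CPM. Sox2 was listed at 0 in every sample. Why some genes are listed at 0 was not tested, so a 0 is not read here as absent transcription. The 14 markers of other cell types (endoderm, mesoderm, primed epiblast, neural, trophoblast and fibroblast) summed to 15.2 to 23.5 CPM, with Sox1 and Postn at 0. The highest of them was T, at 5.5 to 8.23 CPM, a level like that of Dppa3. These marker values are not divided by length. A single library stood apart: 0 h replicate 1 had 49.2% of its counts assigned to an allele, against 51.7% to 52.8% elsewhere, and the 0 h pair had a chi-square per degree of freedom of 11.5 against at most 6.14 in the other pairs. The range of the changes against 0 h is also given without that library. In bulk RNA, fewer transcribing cells and less RNA per cell cannot be told apart.

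The 10 genes covered a wide range of nascent levels per length, and the order was headed by the enzyme Asns and by Atf4 itself. Asns, asparagine synthetase, was at 30.7 ± 1.99 CPM per kb (SD, n = 10), with samples from 28.2 to 34.8. Atf4 was at 28.1 ± 2.1 CPM per kb, with samples from 25.4 to 32.7, so the ranges of these 2 genes overlapped. Psat1, which makes phosphoserine, followed at 6.96 ± 0.469 CPM per kb, below every Atf4 sample and above every sample of the genes after it. Shmt2 (4.19 ± 0.335), Phgdh (3.51 ± 0.265) and Mthfd2 (3.15 ± 0.167 CPM per kb), enzymes of serine and one-carbon metabolism, formed a run in which each overlapped its neighbour. Ddit3 (1.98 ± 0.192 CPM per kb), which encodes the stress factor CHOP, lay below every Mthfd2 sample and above every sample of the pseudokinase Trib3 (1.35 ± 0.0836). Chac1, a glutathione-degrading enzyme, was at 1.25 ± 0.288 CPM per kb and Atf5, a factor related to ATF4, at 0.915 ± 0.068, and neither neighbouring pair from Trib3 to Atf5 was separate. Among all 14525 tested genes the level per length of Asns was at percentile 99.1, that of Atf4 at 98.9 and that of Atf5 at 48.5. The counted spans differ in makeup, which limits this order. Exons made up 99.8% of the span of Atf4, the highest share, against 14.8% for Asns and 9.19% for Phgdh, the lowest. The part that exon reads play in the levels was not tested.

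**Figure D1:**
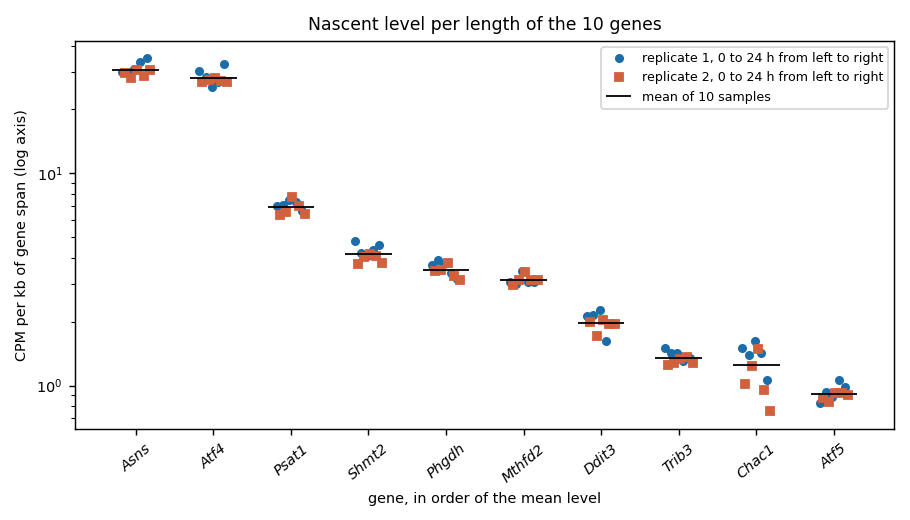
Nascent level of each gene in each of the 10 samples, as CPM per kb of gene span on a log axis, with circles for replicate 1, squares for replicate 2, times from left to right and a bar at the mean of 10 samples. Asns and Atf4 lie at 25.4 CPM per kb or more in every sample and Atf5 stays between 0.83 and 1.06.

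The levels of a gene varied little from sample to sample. The coefficient of variation of CPM over the 10 samples was 5.31% for Mthfd2, the lowest, and at most 9.68% for 9 of the genes, whereas it was 23.0% for Chac1. Chac1 was also among the shallowest, with 52 to 107 reads per sample, next to 70 to 95 reads for Atf5. At the other end, Asns had 9663 to 12477 reads per sample.

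No gene of the 10 passed the test for a change of its nascent count against 0 h at any time. With edgeR's quasi-likelihood test and Benjamini-Hochberg adjustment over 14525 genes, 0 of 10 were called at 4, 8, 12 and 24 h, where 0.0138%, 0.193%, 0.95% and 1.85% of all tested genes were called. At the unadjusted p threshold of 0.05 the number was 0, 2, 0 and 1, where 2.09%, 4.06%, 11.5% and 10.3% of all tested genes passed it. DESeq2 and limma-voom also called 0 at each time. At the 4 times the 10 genes had a median log2 change of 0.00, 0.07, -0.04 and -0.04, beside medians over all tested genes of 0.00, 0.00, 0.00 and 0.01. Under the same adjustment over all genes, 0.00713%, 0%, 0.171% and 0.549% of autosomal genes were called, and all 10 genes are autosomal. Without 0 h replicate 1, 0 of 10 genes were called at any time, and the log2 changes ran from -0.04 to 0.37 at 4 h, 0.01 to 0.62 at 8 h, -0.15 to 0.22 at 12 h and -0.18 to 0.17 at 24 h. In that setting the median log2 change at 12 h was 0.08 in place of -0.04. Without 0 h replicate 2 it was -0.17.

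With all samples, the 95% interval of each of the 10 genes ended below a 2-fold increase at every time. In order of time, the highest upper bound was 1.49-fold, 1.75-fold, 1.51-fold and 1.44-fold, for Chac1 at 4 and 8 h and for Atf5 at 12 and 24 h. Towards lower values, the 24 h interval of Chac1 reached 0.489-fold, and all other lower bounds stayed above a 2-fold decrease. The 0 h samples moved these bounds. Without 0 h replicate 1 the upper bound of Chac1 at 8 h was 2.33-fold, and the other upper bounds at the 4 times were at most 1.98-fold. Without 0 h replicate 2 the lower bound of Chac1 at 24 h was 0.392-fold.

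**Figure D2:**
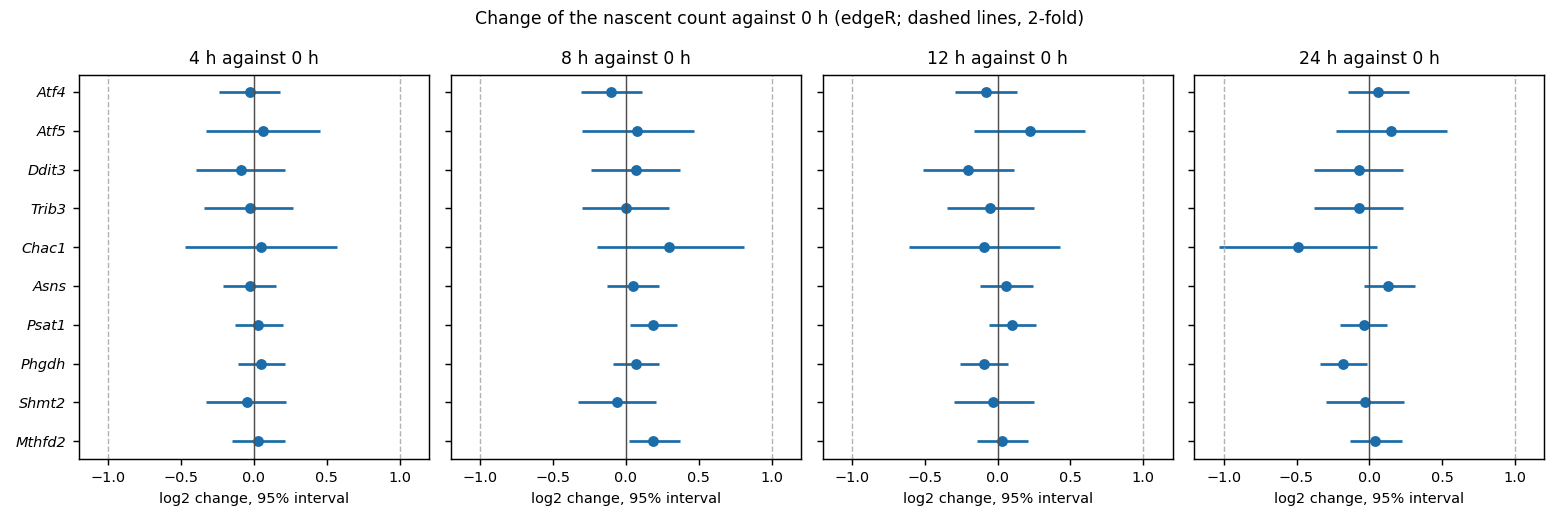
Log2 change of the nascent count of each gene at 4, 8, 12 and 24 h against 0 h (2 samples against 2), with points for the edgeR estimate, bars for its 95% interval and dashed lines at a 2-fold change. With all samples no bar reaches the dashed line of a 2-fold increase, and the bar of Chac1 at 24 h crosses that of a 2-fold decrease.

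Among the transcription factors, Atf4 had no time that stood clear of 0 h. Its CPM was 71.8 and 63.2 at 0 h, then 67.4 and 65.2 at 4 h, 60.0 and 66.4 at 8 h, 63.4 and 64.4 at 12 h, with 77.2 and 63.5 at 24 h (replicate 1 then replicate 2, here and below). The highest and the second highest samples were the first replicates of 24 h and 0 h, and each later pair overlapped with the 0 h pair. The log2 change at 24 h was 0.06 (95% interval -0.15 to 0.27; edgeR adjusted p = 0.915). Atf4 lies on chr15 from 80255184 to 80257545 (mm10, plus strand).

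Atf5, whose mRNA is also translated under eIF2 phosphorylation, was at 3.65 and 3.84 CPM at 0 h and at 4.12 and 3.68 at 4 h. It was at 3.91 and 4.04 CPM at 8 h, 4.66 and 4.07 at 12 h, with 4.32 and 3.99 at 24 h. From 8 h on every sample lay above both 0 h samples, but the largest log2 change, 0.22 at 12 h (95% interval -0.16 to 0.60), had an edgeR adjusted p of 0.669. Atf5 (chr7:44812256-44816658, minus strand) overlaps Nup62 and Gm21948 on the opposite strand, and reads were counted by strand.

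Ddit3, the pro-apoptotic factor CHOP induced downstream of ATF4, gave 11.7 and 11.0 CPM at 0 h, then 11.7 and 9.47 at 4 h, with 12.5 and 11.2 at 8 h. At 12 h it gave 8.93 and 10.8 CPM and at 24 h 10.7 and 10.8. The 24 h samples and 12 h replicate 2 lay just below both 0 h samples, and 12 h replicate 1 was the lowest of the course. The 8 h samples overlapped with the 0 h pair. The log2 change was -0.20 at 12 h (95% interval -0.51 to 0.11; edgeR adjusted p = 0.615) and -0.07 at 24 h. Ddit3 lies at chr10:127290793-127296288 on the plus strand, opposite Mars.

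Trib3, a pseudokinase that ATF4 and CHOP induce and that dampens their activity, had the lowest coefficient of variation of the 4 regulators (6.19%). Its CPM was 10.0 and 8.28 at 0 h, then 9.45 and 8.47 at 4 h, 9.51 and 8.80 at 8 h, 8.64 and 9.02 at 12 h, with 8.94 and 8.48 at 24 h. All 8 later samples fell between the 2 samples of 0 h, and the largest log2 change was -0.07 at 24 h (95% interval -0.38 to 0.23; edgeR adjusted p = 0.932), or 0.08 without 0 h replicate 1. Trib3 lies at chr2:152337425-152344060 on the minus strand.

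Chac1, a late target that breaks down glutathione, varied most. It was at 4.67 and 3.16 CPM at 0 h, then 4.28 and 3.84 at 4 h, 5.04 and 4.60 at 8 h, 4.42 and 2.95 at 12 h, with 3.26 and 2.33 at 24 h. The 8 h pair had the highest mean and the 24 h pair the lowest, and both overlapped with 0 h. Within each replicate series, the 8 h sample lay above the 0 h sample and the 24 h sample below it. At 8 h the log2 change was 0.30 (SE 0.237, edgeR adjusted p = 0.996). It was 0.62 without 0 h replicate 1 (95% interval 0.01 to 1.22), with an unadjusted p of 0.0456 and an edgeR adjusted p of 0.996, and 0.03 without 0 h replicate 2. The size of the 8 h difference thus rests on which 0 h sample is used. By 24 h the log2 change was -0.49 (SE 0.254, edgeR adjusted p = 0.55). It was -0.18 without 0 h replicate 1 (edgeR adjusted p = 0.919) and -0.76 without 0 h replicate 2, with an unadjusted p of 0.0156 and an edgeR adjusted p of 0.238. With the replicate block the 24 h value was -0.48, with an unadjusted p of 0.0188 and an edgeR adjusted p of 0.183. Chac1 lies at chr2:119351242-119354327 on the plus strand.

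Asns, the enzyme that makes asparagine and a standard reporter of amino acid shortage, was the deepest measurement of the set. Its CPM was 538 and 536 at 0 h, then 541 and 508 at 4 h, 560.2 and 551 at 8 h, 602 and 520.2 at 12 h, with 626 and 552 at 24 h. The 8 and 24 h samples lay above both 0 h samples, by a log2 change of 0.05 and 0.13. The 24 h interval was -0.04 to 0.31 (edgeR adjusted p = 0.669), with an upper end at 1.24-fold. Asns lies at chr6:7675171-7693182 on the minus strand.

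In the serine pathway, Phgdh commits 3-phosphoglycerate to serine and Psat1 carries out the next step. Psat1 was at 139.8 and 127 CPM at 0 h, then 141 and 132 at 4 h, 149 and 155 at 8 h, 146 and 139.5 at 12 h, with 132 and 128 at 24 h. Both 8 h samples were the highest of the course. The log2 change at 8 h was 0.19 (95% interval 0.03 to 0.35), with an unadjusted p of 0.025 and an edgeR adjusted p of 0.996. It was 0.27 without 0 h replicate 1 and 0.11 without 0 h replicate 2. Psat1 (chr19:15905123-15925059, minus strand) has 1 pseudogene of at least 90% identity in the GENCODE transcripts, 91.0% at the highest. Whether this affects its reads was not tested.

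Phgdh had the lowest adjusted p of the 10 genes at 24 h. Its CPM was 98.9 and 93.0 at 0 h, then 105 and 93.7 at 4 h, 101 and 101 at 8 h, 91.2 and 88.6 at 12 h, with 85.4 and 83.9 at 24 h. The 12 and 24 h samples were below both 0 h samples and the 8 h samples above them. The log2 change at 24 h was -0.18 (95% interval -0.34 to -0.02), with an unadjusted p of 0.0321 and an edgeR adjusted p of 0.408. It was -0.13 without 0 h replicate 1 (edgeR adjusted p = 0.735). Phgdh (chr3:98313171-98339969, minus strand) is uncertain as a measurement, since 20 other GENCODE transcripts, 17 of them pseudogenes, match its mRNA at 90% or more, up to 98.7%. These matches are to the mRNA, while exons make up 9.19% of the counted span. How many of its reads they concern was not tested.

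In the mitochondrial one-carbon pathway, Shmt2 splits serine to glycine and a one-carbon unit, which Mthfd2 then oxidises. Shmt2 was at 25.7 and 19.9 CPM at 0 h, then 22.5 and 21.5 at 4 h, 21.6 and 22.1 at 8 h, 23.1 and 21.7 at 12 h, with 24.5 and 20.1 at 24 h. All later samples lay within the 0 h pair, and no log2 change was beyond -0.06. The 24 h value was 0.17 without 0 h replicate 1, the highest of these samples. Shmt2 lies at chr10:127517123-127522444 on the minus strand, opposite Ndufa4l2, and has 1 pseudogene at 90.1% identity.

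Mthfd2 was at 36.5 and 35.4 CPM at 0 h, then 35.8 and 37.6 at 4 h, 41.4 and 40.7 at 8 h, 36.4 and 37.3 at 12 h, with 36.7 and 37.4 at 24 h. As for Psat1, both 8 h samples were the highest of the course. The log2 change at 8 h was 0.19 (95% interval 0.02 to 0.37), with an unadjusted p of 0.0345 and an edgeR adjusted p of 0.996. It was 0.22 without 0 h replicate 1 and 0.16 without 0 h replicate 2. Mthfd2 lies at chr6:83305704-83317604 on the minus strand.

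**Figure D3:**
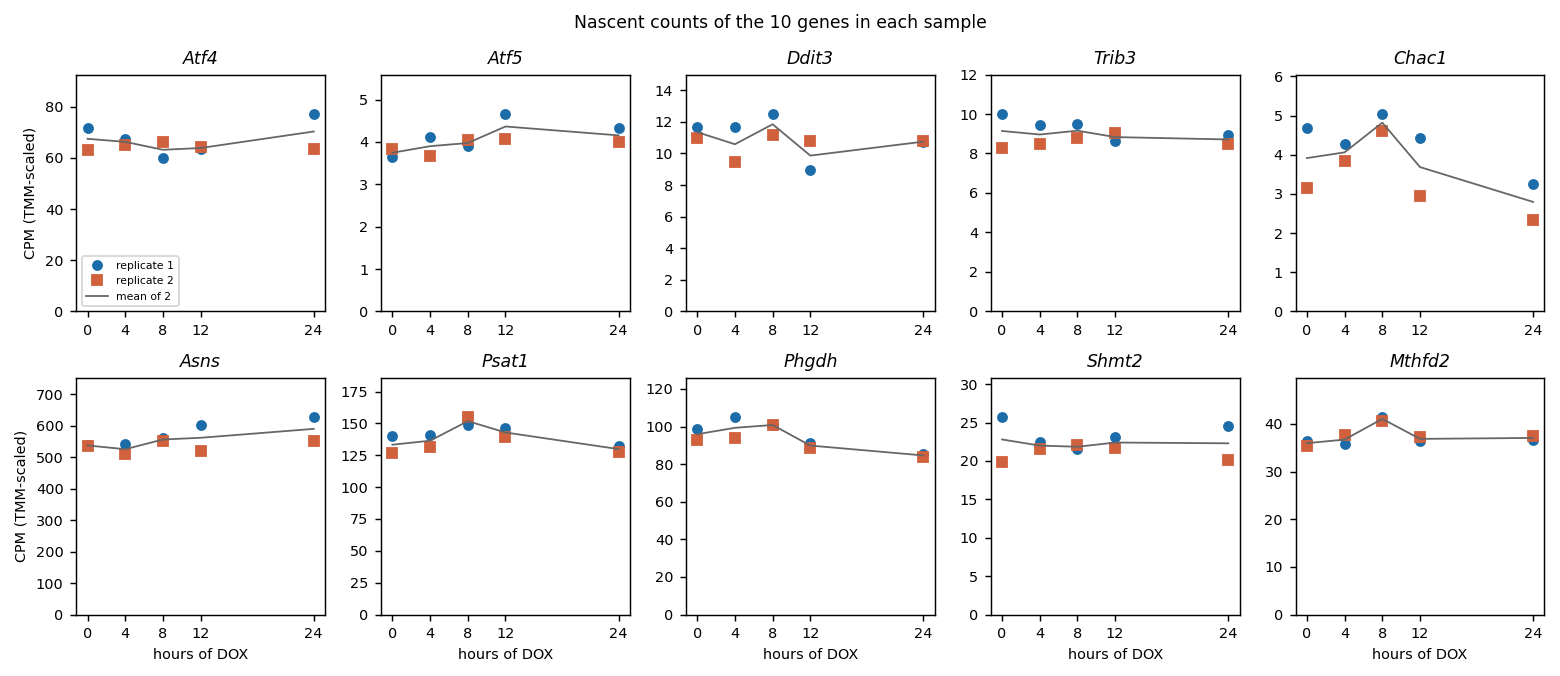
TMM-scaled CPM of each gene against hours of DOX, with circles for replicate 1, squares for replicate 2, a line through the mean of 2 and every axis starting at 0. Psat1 and Mthfd2 have their highest mean at 8 h (151.8 and 41.0 CPM), Phgdh its lowest at 24 h (84.7 CPM), and Chac1 has means of 4.82 CPM at 8 h and 2.80 at 24 h, 2 times that were not compared with each other.

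Counts of samples that do not overlap say little here, because the 0 h pair is small and many genes separate from it. Against 0 h, 0 of 10 genes were separate at 4 h, 5 at 8 h (all higher: Atf5, Asns, Psat1, Phgdh and Mthfd2), 3 at 12 h and 5 at 24 h. Over all tested genes the share that did not overlap with 0 h was 25%, 30.2%, 40.8% and 36.3%. The 3 genes at 12 h were Atf5, higher, and Ddit3 and Phgdh, lower. The 5 at 24 h were Atf5, Asns and Mthfd2, higher, and Ddit3 and Phgdh, lower.

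Between successive times, 0 of 10 genes were called by edgeR from 4 to 8 h, from 8 to 12 h and from 12 to 24 h. Among all tested genes 0%, 0% and 0.00688% were called. At an unadjusted p under 0.05 there were 0, 1 and 0 of the 10, beside 2.31%, 4.4% and 9.02% of all genes, the 1 being Phgdh from 8 to 12 h (log2 change -0.17, unadjusted p of 0.0467, edgeR adjusted p of 0.999). In the test of any difference between the 5 times, 0 of 10 genes were called against 1.25% of all genes. The lowest edgeR adjusted p was that of Phgdh, 0.485, with an unadjusted p of 0.0263. Psat1 followed with an edgeR adjusted p of 0.643 and Chac1 with 0.671.

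Because the cells are hybrids, reads over strain differences give the share of each gene made from the B6 allele. This share shows whether a change ran unequally on the alleles. It is B6 reads over B6 plus Cast (castaneus) reads, and its median was 0.522 over the 11543 autosomal genes whose allelic reads numbered 10 or more in each sample (interquartile range 0.479 to 0.567). Depth differed greatly between the genes: Asns had 8044 to 10383 allelic reads per sample, Atf5 only 25 to 47 and Chac1 39 to 71. Wilson intervals on single shares cover counting error only.

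No gene of the 10 passed the test for a change of its B6 share against 0 h. In an edgeR quasi-likelihood test on the allelic counts with Benjamini-Hochberg adjustment over 11906 genes, 0 of 10 were called at 4, 8, 12 and 24 h, where 0.361%, 1.67%, 2.15% and 2.64% of all genes were. At an unadjusted p under 0.05 there were 0, 0, 2 and 1, beside 4.98%, 5.95%, 7.35% and 8.09% of all genes. DESeq2 and limma-voom also called 0 at each time. Under the adjustment over all genes, 0.00866%, 0.0606%, 0.156% and 0.347% of autosomal genes were called, which is 1, 7, 18 and 40 genes, and with the adjustment over autosomal genes alone 0, 0, 2 and 6 were. The 2 genes at 12 h were Trib3 and Shmt2, and the 1 at 24 h was Trib3.

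Trib3 had the largest tilt towards Cast. Its B6 share was 0.458 and 0.429 at 0 h, then 0.407 and 0.367 at 4 h, 0.356 and 0.396 at 8 h, 0.312 and 0.351 at 12 h, with 0.362 and 0.325 at 24 h, on 90 to 120 allelic reads per sample. All 8 DOX samples lay below both 0 h samples, and none of the other 9 genes was separate in this way. Over the 11906 genes, X-linked genes included, 5.21% show such an order in one direction or the other. The share over autosomal genes alone was not counted. At 12 h the ratio of B6 to Cast reads had moved by a log2 change of -0.69 (95% interval -1.28 to -0.10), with an unadjusted p of 0.0227 and an edgeR adjusted p of 0.495. At 24 h the log2 change was -0.62 (95% interval -1.21 to -0.04), with an unadjusted p of 0.0377 and an edgeR adjusted p of 0.56. These changes were -0.60 and -0.54 without 0 h replicate 1 (edgeR adjusted p = 0.832 and 0.871). The total count of Trib3 stayed within its 0 h pair at the same times.

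Shmt2 had its lowest B6 share in 12 h replicate 2. Its B6 share was 0.562 and 0.568 at 0 h, then 0.574 and 0.398 at 12 h, with 0.469 and 0.536 at 24 h, with 0.527 to 0.565 at 4 and 8 h. The low value of 12 h replicate 2 rested on 196 allelic reads (95% Wilson interval 0.332 to 0.468). With all samples the log2 change at 12 h was -0.46, with an unadjusted p of 0.0445 and an edgeR adjusted p of 0.656. Without 12 h replicate 1, which leaves that sample alone at 12 h, it was -0.98 (edgeR adjusted p = 0.0241), in a fit that assumes the lone sample to vary like the pairs of the other times. Without 12 h replicate 2 it was 0.04, so the 12 h difference rests on that sample. At 24 h, where replicate 1 was also below both 0 h samples, the log2 change was -0.38 (95% interval -0.83 to 0.07). Its edgeR adjusted p was 0.765.

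Averaged over the 5 times, 8 of 10 genes had a B6 share away from the autosomal balance, 7 of them below and 1 above. Such a tilt is common: 36.9% of all tested genes were called below and 34.3% above. Asns, with the most reads, was at 0.438 to 0.462 in the 10 samples, a log2 ratio of -0.43 (SE 0.0134, edgeR adjusted p = 3.14e-61), and every sample was below an even share. Trib3 was also below an even share in all 10 samples, with a log2 ratio of -0.87 (SE 0.0941, edgeR adjusted p = 3.03e-15). Atf5 (log2 ratio -0.58), Ddit3 (-0.30), Atf4 (-0.21), Mthfd2 (-0.21) and Psat1 (-0.15) were the other genes called below and Phgdh (0.09) was called above, with the limit on its reads given earlier. Chac1 (-0.28, edgeR adjusted p = 0.0528) and Shmt2 (0.02, edgeR adjusted p = 0.796) were not called.

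These calls are set against the autosomal balance of each library and not against 0.5. With 1 common factor for both alleles, which sets the reference at an even share, 5 of 10 genes were called: Asns, Trib3 and Atf5 below, and Phgdh and Shmt2 above. Over all 11906 tested genes this setting called 8894, where the reported fit called 8478. Atf4, Ddit3, Psat1 and Mthfd2 lost their call (edgeR adjusted p = 0.202, 0.143, 0.432 and 0.189). Psat1 is an example, with a mean share of 0.497 that is even in itself but under the autosomal median. The Ddit3 call was also lost without 8 h replicate 1 (edgeR adjusted p = 0.107) and with DESeq2 (adjusted p = 0.092), and that of Phgdh without 24 h replicate 2 (edgeR adjusted p = 0.171) and with DESeq2 (adjusted p = 0.101). Chac1 gained one with limma-voom (adjusted p = 0.0443) and without 8 h replicate 1 (edgeR adjusted p = 0.0409).

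**Figure D4:**
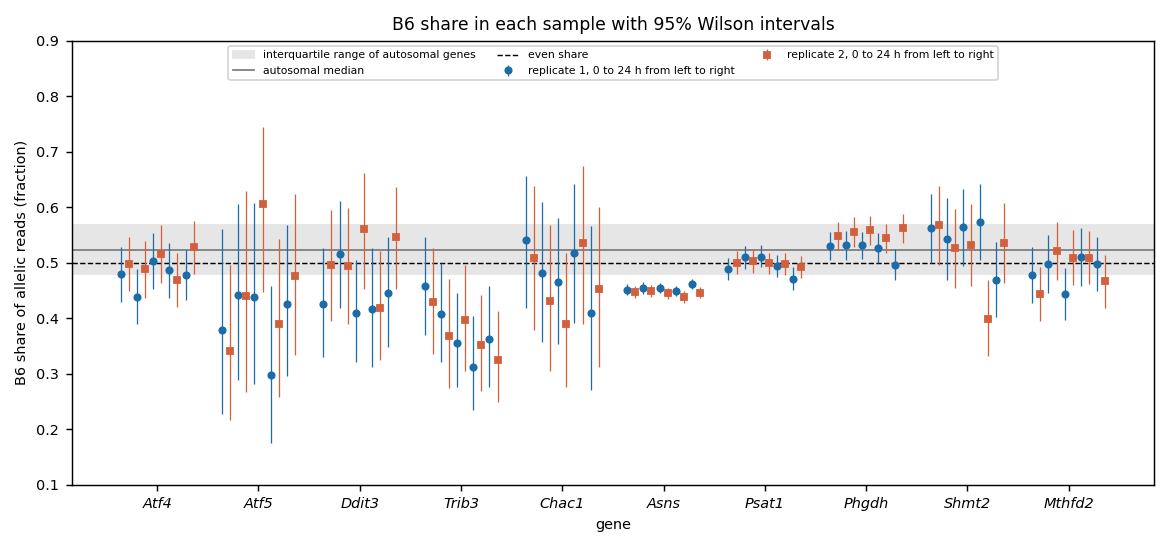
B6 share of allelic reads for each gene in each sample, with circles for replicate 1, squares for replicate 2, times from left to right and bars for 95% Wilson intervals. A grey band marks the interquartile range of autosomal genes (0.479 to 0.567). Trib3 and Asns lie below the band in all 10 samples, and the bars of Atf5, Ddit3 and Chac1 are wide because these genes have few allelic reads.

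Between the replicate series 1 gene of the 10 was called, Chac1, a share near the 11.7% of all genes. The comparison was chosen after seeing the data and used the fit with the replicate number as a block. The log2 difference of replicate 2 from replicate 1 was -0.37 for Chac1 (SE 0.12, edgeR adjusted p = 0.0362). Replicate 1 was the higher at 5 of 5 times. Asns was also higher in replicate 1 at 5 of 5 times, with means of 574 and 533 CPM, but was not called (edgeR adjusted p = 0.121). Over the 10 genes and 5 times replicate 1 was the higher in 37 of 50 pairs, and 9 of 10 genes had the higher mean in replicate 1, Mthfd2 being the exception. Over all tested genes the fitted level was higher in replicate 1 for 50.8%, which is a share of genes. The share of pairs over all genes was not counted. What differed between the series is not stated in the labels.

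In the 6 lists of further pathway genes few genes were called. Of 80 listed genes in the files, 76 were tested, and edgeR called 0 at 4 h and 8 h, 1 at 12 h and 2 at 24 h, both lower, where 0.0138%, 0.193%, 0.95% and 1.85% of all tested genes were called. At an unadjusted p under 0.05 there were 2, 3, 7 and 8 of the 76, beside 2.09%, 4.06%, 11.5% and 10.3% of all tested genes. Slc7a3, a transporter of cationic amino acids on the X chromosome, was at 64.3 and 53.6 CPM at 0 h and at 38.1 and 34.1 at 24 h. Its log2 change was -0.59 at 12 h (edgeR adjusted p = 0.00998) and -0.71 at 24 h (edgeR adjusted p = 0.00124). Of the 269 genes called at 24 h over the whole table, 77 were autosomal and the rest, Slc7a3 among them, X-linked. Without 0 h replicate 1 the 12 h change of Slc7a3 was -0.45 (edgeR adjusted p = 0.123). Leaving out 12 h replicate 1 or 2 also ended that call (edgeR adjusted p = 0.0595 and 0.153).

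Mthfd2l, the mitochondrial relative of Mthfd2, was at 4.58 and 5.22 CPM at 0 h, then 3.09 and 2.67 at 12 h, with 2.71 and 2.87 at 24 h. Its log2 change at 24 h was -0.81 (SE 0.186, edgeR adjusted p = 0.036), against 0.04 for Mthfd2. The call was lost without 0 h replicate 1 (edgeR adjusted p = 0.076), without 0 h replicate 2 (0.159), without 8 h replicate 1 (0.0509), without either 24 h replicate (0.225 and 0.177) and with DESeq2 (0.13).

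With the replicate block the lists gave 1 call at 8 h, 4 at 12 h and 5 at 24 h among the 76 genes tested. At these times the block called 108, 718 and 773 of all 14525 tested genes, and 0.0214%, 3.12% and 3.31% of the autosomal ones. Slc7a3 was called at all 3 times and Mthfd2l at 12 and 24 h. The other calls with the block were Gpt2 (log2 change 0.26, edgeR adjusted p = 0.0285) and the protease Yme1l1 (0.27, 0.0144) at 12 h. At 24 h they were the transsulphuration enzymes Cbs (0.40, edgeR adjusted p = 0.0389) and Cth (0.37, 0.00395) and the cystine transporter Slc7a11 (-0.74, 0.0332). The block called no gene of the 10 against 0 h, and the lowest edgeR adjusted p it gave was 0.152, for Phgdh at 24 h. Over all genes it called 5, 108, 718 and 773 at the 4 times, where the fit without it called 2, 28, 138 and 269.

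By list, medians at 24 h stayed close to the 0.01 of all tested genes. The eIF2 kinases, phosphatases and exchange factors, with the mitochondrial relay protease Oma1, had 0 of 14 genes called and a median log2 change of 0.05. The largest changes in that list were those of Eif2b4 (0.19) and Oma1 (0.13). Other regulators among ATF4 targets had 0 of 14 called and a median of -0.04, with -0.50 for Ddit4, an inhibitor of mTORC1 (unadjusted p of 0.0442, edgeR adjusted p of 0.465), and -0.25 for Cebpb, at under 1 CPM. Amino acid transporters had 1 of 12 called, Slc7a3, and a median of -0.04. Enzymes of serine, glycine, one-carbon and proline metabolism had 1 of 15 called, Mthfd2l, and a median of -0.02.

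Mitochondrial stress chaperones and proteases had 0 of 11 genes called at 24 h and a median log2 change of -0.02. Yme1l1, at 173 and 211 CPM at 0 h and 223 and 222 at 24 h, had the largest (0.21, edgeR adjusted p = 0.347), and Clpp had -0.07. ER stress targets had 0 of 10 called and a median of 0.02, with 0.17 for Sdf2l1 and 0.13 for Dnajb9. Pluripotency markers had 0 of 9 and markers of other cell types 0 of 9 called at 24 h, with medians of 0.00 and -0.03. Their largest changes were those of Tbx3 (0.24, edgeR adjusted p = 0.301), Klf4 (0.14), Cdx2 (-0.72, edgeR adjusted p = 0.557) and Gata6 (-0.48). Aldh18a1, Got1 and Gldc were listed at 0 in all samples, and Fgf21, with at most 2 reads, did not pass the filter.

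**Figure D5:**
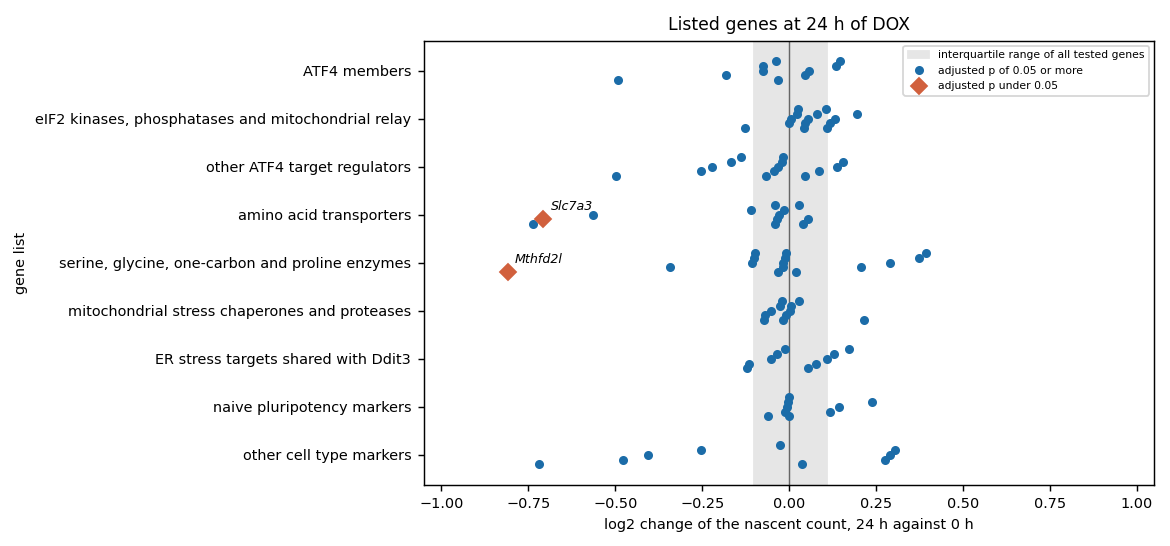
Log2 change at 24 h against 0 h of every tested gene of the 10 ATF4 genes, the 6 pathway lists and the 2 marker lists, with 1 point per gene, vertical offsets without meaning, diamonds for an edgeR adjusted p under 0.05 and a grey band for the interquartile range of all tested genes (-0.10 to 0.11). The 2 diamonds are Slc7a3 at -0.71 and Mthfd2l at -0.81.

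None of the other 9 genes was among the 5 whose level was most like that of Atf4. Over the 10 samples, Pearson's r of log2 CPM with Atf4 was highest for Ensa (0.95), Prelid1 (0.94), Rpl4 (0.93), Tuba1b (0.93) and Phkg1 (0.92), given as a description over samples that share 5 times and 2 replicate series. Among 14524 other genes, Shmt2 ranked 246 (r = 0.74), Asns 2725 (0.39) and Trib3 3734 (0.30). The remaining 6 genes ranked from 6647 to 11179, with r from 0.07 for Atf5 to -0.33 for Mthfd2. Shmt2 and Atf4 shared their 2 highest samples, the first replicates of 0 h and 24 h.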

How the data were processed

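TT-seq of 10 samples (5 times of DOX, 2 replicates) was analysed. Per the paper's methods the authors trimmed reads with Cutadapt, aligned them with STAR to mm10 masked at strain differences, kept unique proper pairs and assigned them to alleles with SNPSplit. They counted them by strand with featureCounts over the longest refFlat span of each gene, while the submitters' processing notes name TopHat2 2.1.0, bedtools and featureCounts 1.5.1. The deposited tables hold raw counts of all, B6 and Cast reads per gene, without normalisation. The authors also deposited the B6 fraction, which was recomputed here from the counts.

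Groups came from the sample labels. Counts were tested with edgeR 4.0.16 (R 4.3.3), using filterByExpr, TMM and a quasi-likelihood fit of time to all 10 samples. B6 shares were tested on allelic counts with an intercept per sample and allele-by-time terms, in 11906 genes whose allelic reads numbered 10 or more per sample, scaled on autosomal genes. Tests were two-sided, with Benjamini-Hochberg adjustment over all tested genes and a threshold of 0.05. The level order used CPM per kb. DESeq2 1.42.0, limma 3.58.1, other scalings, no filter, a replicate block and leaving out each sample were alternatives. The scripts were tested on simulated data.

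Replicates of a time had r of log2 CPM of 0.9932 to 0.9942 and were separate libraries. Same-numbered samples of different times deviated together (r of deviations 0.142 to 0.281 over 10 pairs of times). The fits reported have no replicate block and do not use this pairing. Only the alternative with the block takes the numbers to pair the samples. The pairing rests on the data, since the labels do not say what a number shares. Intervals on shares are 95% Wilson intervals. Near-identical copies were searched with BLAST in GENCODE M21 transcripts at 90% identity over at least 150 bases.

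The members, the lists and the tests were chosen with earlier results of these data known. The genes named are the 10, the list genes past the threshold or otherwise the 2 of a list with the largest change at 24 h, those called with the block, and the 5 most like Atf4. Totals of 18809046 to 22274929 counts per sample set the precision.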

Additional observations from a re-analysis of the deposited data

How the results depend on the processing

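No setting called any of the 10 genes for its total count, over 20 alternatives to the fit reported, and the lowest adjusted p against 0 h was 0.152 (edgeR, with the replicate block). The log2 changes of the 10 genes against 0 h ran from -0.76 to 0.62 over all settings, and 45 of 760 values had the opposite sign to the reported value, none of them called. Leaving out each replicate in turn gave a median log2 change of -0.08 to 0.09 at 4 h, 0.03 to 0.13 at 8 h, -0.17 to 0.08 at 12 h and -0.12 to 0.08 at 24 h. The 12 h values were those without 0 h replicate 2 and without 0 h replicate 1. For the B6 share against 0 h, leaving out a replicate gave 0 to 1 calls at 12 h and 0 at the other times. For the share averaged over the times it gave 7 to 8 calls, and 1 common factor for both alleles gave 5 in place of 8, because the reference is then an even share. Over all 11906 tested genes the common factor gave 8894 calls in place of 8478. Among their 76 tested genes the pathway lists gave 1, 4 and 5 calls at 8, 12 and 24 h with the replicate block. The block rests on the pairing described under the processing, and it called 108, 718 and 773 of all 14525 tested genes at these times. With DESeq2 the lists gave 1 call at 8 h and 1 at 24 h. Leaving out a replicate gave 0 to 1 calls at 8 h, 0 to 2 at 12 h and 1 to 2 at 24 h. The block changed no other call reported for the 10 genes. Without division by length, 7 of 10 genes took another place in the order of levels, and Psat1 and Phgdh then came before Atf4. Reads per sample were lowest for Chac1 (52 to 107) and Atf5 (70 to 95). The causes of these differences were not tested.

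Over all genes tested for total counts, 2, 28, 138 and 269 were called at 4, 8, 12 and 24 h. The number was 3, 50, 189 and 284 with DESeq2, 3, 53, 266 and 390 without the filter on low counts, 2, 7, 84 and 242 with only the 2 times compared, 2, 41, 218 and 371 at an adjusted p under 0.1, and 5, 108, 718 and 773 with the replicate block. Leaving out a replicate gave 1 to 2, 5 to 29, 53 to 222 and 131 to 268. In the test of the 5 times together 181 genes were called, with 889 under the block, 385 without the filter, 280 with DESeq2 and 117 to 179 without a replicate. With the p-values adjusted over autosomal genes alone, the numbers of autosomal genes called at the 4 times were 1, 0, 1 and 16. For the B6 share against 0 h, 43, 199, 256 and 314 genes were called, and 15, 125, 184 and 216 with DESeq2.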
